A study of Danio rerio with 6 samples.

Results

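The 5 genes described here belong to the enveloping layer (EVL) of the zebrafish blastula. They are grhl3 (ENSDARG00000078552), the keratin genes krt4 (ENSDARG00000017624), krt8 (ENSDARG00000058358) and krt18a.1 (ENSDARG00000018404), and the claudin gene cldne (ENSDARG00000043128), 5 of the 32054 genes in the count table. They were chosen by name with their values in this same comparison already known, so their differences between the groups are given as a description, with no test. The mondoa-mo group consisted of embryos injected with mondoa-mo, a morpholino that blocks translation of the mondoa mRNA, and the mondoa-mis group of embryos injected with mondoa-mis, a mismatch morpholino that served as control. There were 3 libraries in each group, and all of them were made from whole embryos at 4 hpf, sampled when the control embryos had reached sphere stage. The comparison asks which transcripts differ upon loss of mondoa function shortly before the epiboly phenotype can be seen. Both groups were injected, no uninjected group was used here, and the embryos were described as wild type, from AB or golden stock. A morpholino lowers protein output in all cells that take it up, and each sample was a pool of embryos, so neither single embryos nor single cell types were resolved.

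The EVL is the outermost epithelium of the blastula, a flat sheet sealed by tight junctions that covers the deep cells and is attached at its margin to the yolk syncytial layer (YSL). During epiboly it spreads over the yolk together with the deep cells, and it later forms the periderm, the outer layer of the embryonic skin. In zebrafish, Klf17 and Grhl3 are known transcription factors of its differentiation, keratins form its intermediate filaments and claudins seal its cell contacts. In whole-embryo RNA, fewer cells of a type and less RNA per cell cannot be told apart.

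Total counts lay between 21839631 and 32100726 in the mondoa-mo libraries and between 20685326 and 24254373 in the mondoa-mis libraries. All 5 genes were among the 15511 that passed the filter on low counts. At an adjusted p below 0.05 (quasi-likelihood test of edgeR, Benjamini-Hochberg adjustment), 32.3% of the tested genes were called changed, 16.9% higher and 15.4% lower in mondoa-mo, and in 47.8% the 2 groups did not overlap. Against these shares, 2 of the 5 genes did not overlap between the groups and the same 2 were called, cldne as higher and grhl3 as lower. Nothing is read from these counts, since the genes were chosen on this contrast. MLXIP, the mondoa gene itself, had 298, 327 and 349 CPM in mondoa-mo replicates 1, 2 and 3 and 278, 273 and 267 CPM in mondoa-mis replicates 1, 2 and 3. Its mRNA does not check the knockdown, because a translation-blocking morpholino acts on the protein. Nothing in the labels says that the replicates came from separate clutches, so p-values measure the spread between these samples only.

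The replicates of the 2 groups were not equally alike. The chi-square per degree of freedom between the counts of 2 libraries was 9.96 to 15.2 for the pairs of mondoa-mo libraries and 1.31 to 1.67 for the pairs of mondoa-mis libraries, so every pair differed by more than counting error. Over the 10913 tested genes that averaged 100 counts or more, the median coefficient of variation (CV) was 7.65% in mondoa-mo and 3.28% in mondoa-mis. For the EVL genes the mondoa-mo library farthest from the other 2 was not always the same. On the log2 CPM scale replicate 3 lay above the mean of replicates 1 and 2 by 1.46 for krt4, 1.04 for krt8 and 0.50 for cldne, and for these genes it was the farthest. For krt18a.1 replicate 2 was the farthest, at −0.67 from the mean of the other 2, and replicate 3 lay at 0.54. For grhl3 replicate 2 was also the farthest, at −0.23. Over the genes that averaged 100 counts or more, the 5th and 95th percentiles of this distance were −0.28 and 0.32 for replicate 2 and −0.35 and 0.33 for replicate 3. Log2 fold changes are therefore given with and without the libraries that move them.

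Levels are given as CPM, counts scaled to a common library total after TMM normalization. Grhl3 is a grainyhead-like transcription factor of the periderm. It had 34.4, 28.5 and 32.6 CPM in mondoa-mo replicates 1, 2 and 3, against 115, 116 and 120.3 CPM in mondoa-mis replicates 1, 2 and 3. Every mondoa-mo library was far below every mondoa-mis library, and the groups did not overlap. The means were 31.8 ± 3.01 CPM in mondoa-mo and 117 ± 3.07 CPM in mondoa-mis (SD, n = 3 each). The fitted log2 fold change, mondoa-mo over mondoa-mis, was −1.87 (SE 0.0707). These levels rest on 619 to 1074 counts per mondoa-mo library and 2532 to 2803 per mondoa-mis library. Without mondoa-mo replicate 3 the log2 fold change was −1.88 (SE 0.0745), and over all single libraries left out it lay between −1.93 and −1.81.

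**Figure D1:**
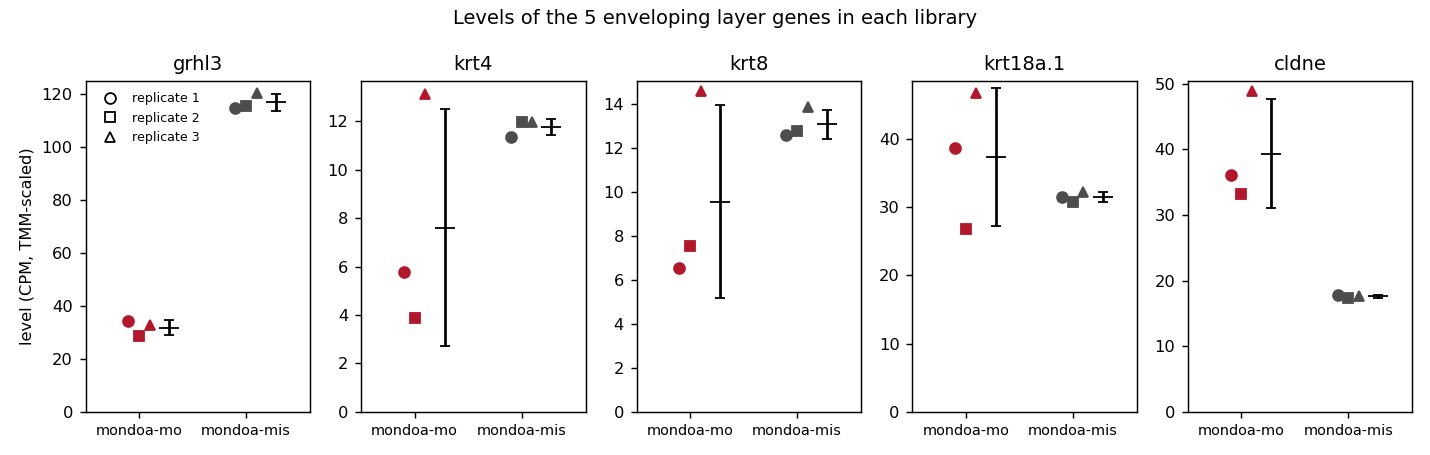
Level in CPM (y axes, linear, starting at 0, a separate scale for each gene) of the 5 EVL genes in each library, with mondoa-mo left and mondoa-mis right; symbols mark the replicates and the bars give the mean ± SD of 3 libraries. The groups are apart for grhl3 and cldne, while krt4, krt8 and krt18a.1 overlap and mondoa-mo replicate 3 is the highest library for all 3 keratins and for cldne.

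The keratin genes krt4, krt8 and krt18a.1 were all highest in mondoa-mo replicate 3, but their log2 fold changes over all libraries differed in sign. Keratin filaments are built from pairs of type I and type II proteins, and krt4 and krt8 encode type II keratins while krt18a.1 encodes a type I keratin. The krt4 level was 5.79, 3.87 and 13.1 CPM in mondoa-mo replicates 1, 2 and 3, against 11.4, 12.0 and 12.0 CPM in mondoa-mis replicates 1, 2 and 3. Replicates 1 and 2 of mondoa-mo were below all mondoa-mis libraries and replicate 3 was above all of them, so the groups overlapped. The means were 7.60 ± 4.89 CPM in mondoa-mo and 11.8 ± 0.347 CPM in mondoa-mis (SD, n = 3 each), a log2 fold change of −0.63 (SE 0.327). Without mondoa-mo replicate 3 it was −1.25 (SE 0.153), and the estimate thus moved by the largest amount among the 5 genes. Leaving out other mondoa-mo libraries moved it the other way, to −0.35 (SE 0.278) without replicate 2 and −0.45 (SE 0.340) without replicate 1.

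The other type II gene, krt8, followed the same library order only in part. It had 6.53, 7.55 and 14.6 CPM in mondoa-mo replicates 1, 2 and 3, against 12.6, 12.8 and 13.8 CPM in mondoa-mis replicates 1, 2 and 3. Again 2 mondoa-mo libraries lay below the whole mondoa-mis group and replicate 3 lay above it. The means were 9.55 ± 4.37 CPM in mondoa-mo and 13.1 ± 0.672 CPM in mondoa-mis (SD, n = 3 each), with a log2 fold change of −0.46 (SE 0.244). It was −0.90 (SE 0.109) without mondoa-mo replicate 3 and −0.23 without mondoa-mo replicate 1.

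For krt18a.1 the levels were 38.6, 26.7 and 46.7 CPM in mondoa-mo replicates 1, 2 and 3, against 31.4, 30.8 and 32.2 CPM in mondoa-mis replicates 1, 2 and 3. Here 2 mondoa-mo libraries were above the mondoa-mis group and replicate 2 was below it. The means were 37.3 ± 10.1 CPM in mondoa-mo and 31.4 ± 0.710 CPM in mondoa-mis (SD, n = 3 each). The log2 fold change was 0.25 (SE 0.157), and it was 0.07 (SE 0.127) without mondoa-mo replicate 3 and 0.43 (SE 0.0859) without mondoa-mo replicate 2.

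Cldne encodes claudin E, a transmembrane protein of the tight junction that is required for zebrafish epiboly. It had 36.1, 33.1 and 48.8 CPM in mondoa-mo replicates 1, 2 and 3, against 17.8, 17.4 and 17.6 CPM in mondoa-mis replicates 1, 2 and 3. Each mondoa-mo library was above each mondoa-mis library. The means were 39.3 ± 8.34 CPM in mondoa-mo and 17.6 ± 0.215 CPM in mondoa-mis (SD, n = 3 each), which gave a log2 fold change of 1.16 (SE 0.131). Without mondoa-mo replicate 3 it was 0.98 (SE 0.0724). The 5 EVL genes thus lay on either side of no change, from grhl3 at −1.87 to cldne at 1.16, while the median over all tested genes was 0.00.

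**Figure D2:**
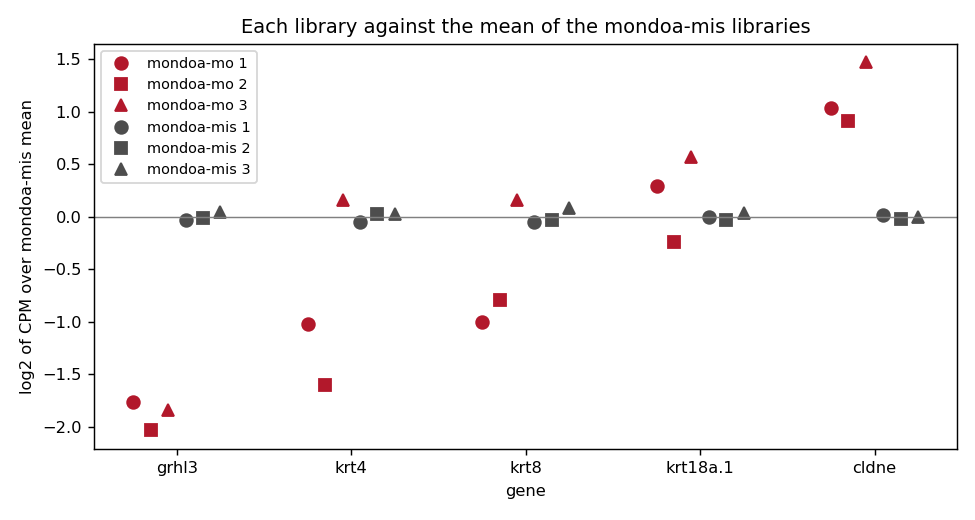
Log2 of the CPM of each library over the mean of the 3 mondoa-mis libraries (y axis) for the 5 EVL genes (x axis); red symbols are mondoa-mo libraries, grey symbols mondoa-mis libraries, and the line at 0 is the mondoa-mis mean. The mondoa-mo libraries are at −2.04 to −1.77 for grhl3 and at 0.91 to 1.47 for cldne, and they spread from −1.60 to 0.16 for krt4.

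The spread within a group was much wider in mondoa-mo than in mondoa-mis for the keratins. The CV of krt4 was 64.4% in mondoa-mo and 2.95% in mondoa-mis, where counting error alone gives 7.19% and 6.08%. That of krt8 was 45.8% in mondoa-mo and 5.14% in mondoa-mis, against 6.47% and 5.78% from counting. The mondoa-mis libraries were thus no further apart than counting error for these genes, whereas the mondoa-mo libraries were. For krt18a.1 the CV was 27.0% in mondoa-mo and 2.26% in mondoa-mis, and for cldne 21.2% in mondoa-mo and 1.22% in mondoa-mis. Grhl3 had the narrowest spread of the 5 genes in mondoa-mo, with a CV of 9.45%, and 2.62% in mondoa-mis. In mondoa-mo the highest library was above the lowest by 3.40-fold for krt4, 2.23-fold for krt8, 1.75-fold for krt18a.1, 1.47-fold for cldne and 1.21-fold for grhl3, and in mondoa-mis by at most 1.10-fold.

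To compare genes with one another, levels were divided by the deposited gene length and are given as RPKM. In mondoa-mo the order of the means was krt18a.1 at 20.2, cldne at 18.9, grhl3 at 10.6, krt8 at 3.30 and krt4 at 3.09 RPKM. In mondoa-mis grhl3 came first at 38.9 RPKM, followed by krt18a.1 at 17.1, cldne at 8.45, krt4 at 4.78 and krt8 at 4.51 RPKM. In mondoa-mo the RPKM of krt18a.1 ranged from 14.5 to 25.3 and that of cldne from 15.9 to 23.4, so this pair did not differ beyond its spread. The same holds for krt8, at 2.26 to 5.03, and krt4, at 1.57 to 5.34 RPKM in mondoa-mo. In mondoa-mis krt4 ranged from 4.62 to 4.87 and krt8 from 4.35 to 4.78 RPKM and so overlapped, while the other neighbours in the order did not.

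Ratios formed within a library remove the scaling between libraries. The RPKM of krt8 relative to krt18a.1 was 0.108, 0.180 and 0.199 in mondoa-mo replicates 1, 2 and 3, against 0.256, 0.264 and 0.274 in mondoa-mis replicates 1, 2 and 3. All mondoa-mo libraries were lower than all mondoa-mis libraries, replicate 3 included. The ratio of krt4 to krt18a.1 was 0.113, 0.109 and 0.211 in mondoa-mo, against 0.271, 0.291 and 0.279 in mondoa-mis, which also did not overlap. The ratio of krt4 to krt8 was 1.04, 0.603 and 1.06 in mondoa-mo, against 1.06, 1.10 and 1.02 in mondoa-mis, and here only mondoa-mo replicate 2 stood below. For cldne relative to krt18a.1 the ratio was 0.828, 1.10 and 0.925 in mondoa-mo, against 0.502, 0.500 and 0.485 in mondoa-mis. Nothing is read from the separation of these ratios, since the genes were chosen on this contrast. The share of other gene pairs whose ratios do not overlap was not computed, and 47.8% of single tested genes did not overlap.

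**Figure D3:**
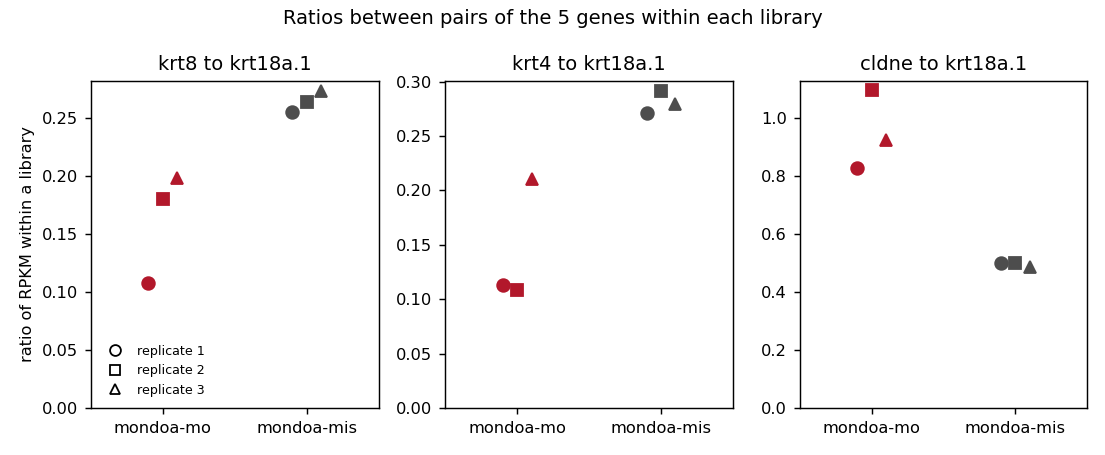
Ratio of the RPKM of 2 EVL genes within each library (y axes, linear, starting at 0), with mondoa-mo left and mondoa-mis right and symbols for the replicates. Krt8 and krt4 relative to krt18a.1 are lower in every mondoa-mo library than in every mondoa-mis library, and cldne relative to krt18a.1 is higher.

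The other genes of EVL differentiation were followed through lists, whose calls come from the same edgeR fit, with Benjamini-Hochberg adjusted p-values over all tested genes. Symbols are written as in the gene name table, so that some zebrafish genes carry capitals. The 5 genes are left out of the list counts that follow. All gene and marker lists were themselves drawn up with earlier results of these data known. Their counts are therefore descriptions, also where they stand beside the shares over all tested genes. Of the EVL regulators other than grhl3, 12 were tested, and 6 were lower, 3 were higher and 3 were not called, where 15.4% of all tested genes were lower and 16.9% higher. Their median log2 fold change was −0.14, against 0.00 over all tested genes. The grainyhead-like family to which grhl3 belongs had 2 further tested genes, and both fell. Grhl2a had 4.35, 4.84 and 3.34 CPM in mondoa-mo and 8.79, 9.23 and 9.27 CPM in mondoa-mis, a log2 fold change of −1.12 (SE 0.140, adjusted p = 0.00023). GRHL1 had 0.768, 0.507 and 1.50 CPM in mondoa-mo and 3.60, 2.55 and 3.33 CPM in mondoa-mis, a log2 fold change of −1.77 (SE 0.313, adjusted p = 0.0019). The remaining family gene, GRHL2, was not tested, with 1 to 7 counts in mondoa-mo libraries and 4 to 7 in mondoa-mis libraries.

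The Krüppel-like factor genes of the list did not move together. Klf17, an EVL transcription factor, fell slightly, with 135, 128 and 126 CPM in mondoa-mo, 149, 147 and 149.9 CPM in mondoa-mis and a log2 fold change of −0.20 (SE 0.0463, adjusted p = 0.0087). Klf2b had 32.7 to 42.3 CPM in mondoa-mo and 16.1 to 18.1 CPM in mondoa-mis and rose by 1.10 on the log2 scale (SE 0.102, adjusted p = 3.9e-05). CHUK, whose product Ikk1 is a maternal regulator of EVL differentiation, was not called, with 268, 284 and 271 CPM in mondoa-mo and 288, 285 and 293 CPM in mondoa-mis. The number of regulators called lower was 6 with all libraries and 3 without mondoa-mis replicate 3, and the call of klf17 was lost in that fit.

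Of 22 keratin genes in the table, 5 passed the filter on low counts, and the levels of krt4, krt8 and krt18a.1 described above were the main part of them. Neither krt97 nor krt5, the other 2, was called by edgeR's quasi-likelihood test or by DESeq2. Krt97 had 0.928, 1.11 and 1.88 CPM in mondoa-mo and 2.45, 1.74 and 2.14 CPM in mondoa-mis. Krt5 had 0.352, 0.322 and 1.50 CPM in mondoa-mo and 0.204, 0.553 and 0.951 CPM in mondoa-mis. At an unadjusted p under 0.05, 0 of these 2 were higher and 1, krt97, was lower. Krt97 was called lower without mondoa-mo replicate 3, with the replicate number as a block, and with the filter relaxed to all genes with at least 1 count. The summed level of all keratins was 40.0 to 80.1 CPM in mondoa-mo and 58.5 to 62.2 CPM in mondoa-mis.

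Among the claudins, the sealing proteins of tight junctions, most were not called. Of 18 tested claudins other than cldne, 4 were higher, 1 was lower and 13 were not called, and their median log2 fold change was −0.05. Over all tested genes 16.9% were higher. Cldng, a further member of the claudin family, was the most abundant of those called: it had 1048, 962 and 945 CPM in mondoa-mo and 539, 562 and 561 CPM in mondoa-mis, and rose by 0.83 on the log2 scale (SE 0.0486, adjusted p = 2.5e-06). CLDN23 rose by 0.81 (SE 0.220, adjusted p = 0.018), CLDN11 (ENSDARG00000030723) by 0.79 (SE 0.163, adjusted p = 0.0045), and cldn23.1 by 0.63 (SE 0.212, adjusted p = 0.045). These 3 genes were far less abundant than cldng, and cldn23.1 overlapped between the groups. CLDN12, with 166, 184 and 171 CPM in mondoa-mo and 194, 199 and 198 CPM in mondoa-mis, fell by 0.18 (SE 0.0494, adjusted p = 0.020). Of the other abundant claudins, cldnd had 1192, 1185 and 955 CPM in mondoa-mo and 1189, 1219 and 1225 CPM in mondoa-mis. Cldn7b had 416, 370.0 and 402 CPM in mondoa-mo and 433, 439 and 434 CPM in mondoa-mis, and neither gene was called. For cldn7b (adjusted p = 0.056) the groups did not overlap, as in 47.8% of all tested genes. It was called lower with libraries scaled by size alone or by relative log expression, and with the replicate number as a block. The same held without mondoa-mo replicate 1 or without mondoa-mo replicate 3. Without any 1 of the 3 mondoa-mis libraries 2 of these 18 were called higher and 0 lower, CLDN23 and CLDN12 being among those lost. Without mondoa-mo replicate 3 there were 3 higher and 3 lower, and without mondoa-mo replicate 1 there were 3 higher and 2 lower. With the replicate number as a block 2 were lower.

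**Figure D4:**
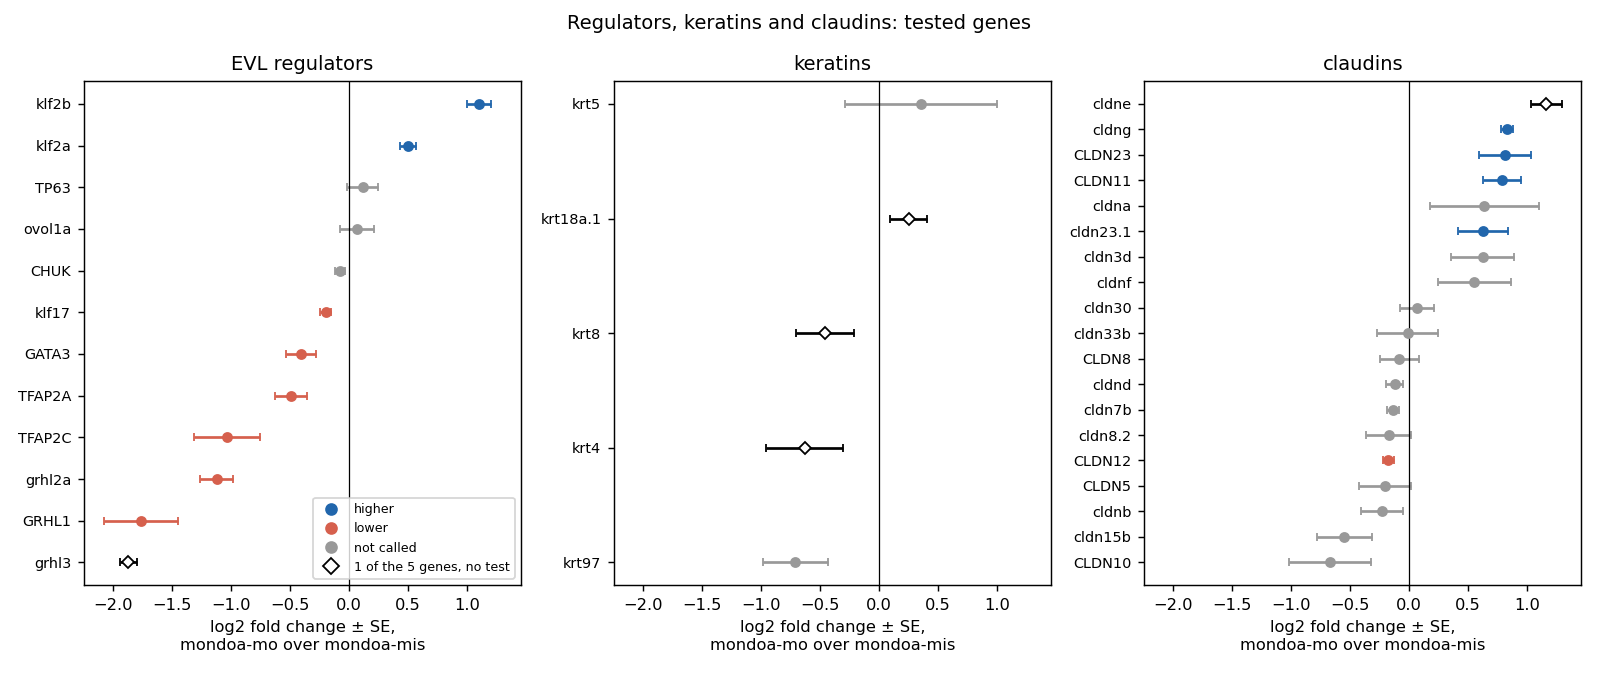
Log2 fold change, mondoa-mo over mondoa-mis, with its standard error (x axes) for tested EVL regulators, keratins and claudins (rows); blue points were called higher, red points lower and grey points were not called, and open diamonds are the EVL genes chosen on this contrast, shown with no test. Grhl3, GRHL1 and grhl2a are the 3 lowest regulators, from −1.87 to −1.12, and cldne and cldng are the 2 highest claudins, at 1.16 and 0.83.

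Most of the cytoplasmic and transmembrane partners of claudins at tight junctions were not called. Of 17 tested genes, 3 were higher, 4 lower and 10 not called, where 32.3% of all tested genes were called, with a median log2 fold change of −0.03. Oclnb, which encodes an occludin, had 118, 114 and 107 CPM in mondoa-mo and 164, 162 and 159 CPM in mondoa-mis, and fell by 0.52 (SE 0.0501, adjusted p = 4.8e-05), while its paralogue oclna was not called, with 492, 449 and 464 CPM in mondoa-mo and 482, 476 and 488 CPM in mondoa-mis. The polarity gene crb3b had few reads, with 13, 10 and 19 counts in mondoa-mo and 27, 23 and 28 counts in mondoa-mis. Crb3b and pard6b, a further polarity gene, fell by 1.04 and 0.57 on the log2 scale, with adjusted p = 0.024 and 0.047. Both of these calls were lost in DESeq2 and without any 1 of the mondoa-mis libraries, which left 2 genes lower in each of those 4 fits. The call of crb3b was also lost without mondoa-mo replicate 1 or 2, and that of pard6b without mondoa-mo replicate 3.

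Genes of adherens junctions and desmosomes, the other contacts of this epithelium, had 8 of 18 tested genes higher, 0 lower and 10 not called, where 16.9% of all tested genes were higher, with a median log2 fold change of 0.15. At an unadjusted p under 0.05 there were 11 higher and 0 lower. Genes called higher came from both kinds of contact. The adherens junction gene NECTIN1 (ENSDARG00000086034), for a nectin, rose by 0.57 on the log2 scale (adjusted p = 0.0013). PPL, encoding periplakin, had 74.8, 85.1 and 71.0 CPM in mondoa-mo and 47.6, 50.8 and 48.0 CPM in mondoa-mis, and rose by 0.66 (SE 0.0730, adjusted p = 0.00011). The 2 genes named DSP, which encode desmoplakins, rose by 0.56 (ENSDARG00000076673, adjusted p = 0.0017) and 1.14 (ENSDARG00000022309, adjusted p = 0.0034), the second at a level of only 1.63 to 2.18 CPM in mondoa-mo and 0.723 to 0.951 CPM in mondoa-mis. The desmosomal cadherins dsc2l and dsg2.1 rose by 0.66 (adjusted p = 0.026) and 0.64 (adjusted p = 0.039). Other desmosomal genes were not called, with log2 fold changes of −0.05 for pkp3a and −0.05 for PKP3, the plakophilin genes. The 2 genes named JUP were not called either, at 0.52 (ENSDARG00000059067) and 0.10 (ENSDARG00000070787). In both, each mondoa-mo library was above each mondoa-mis library, while 47.8% of all tested genes did not overlap in either direction. Among the abundant adherens junction genes, ctnnb2 and cdh1, for a beta-catenin and E-cadherin, were not called: cdh1 had 949, 1048 and 1082 CPM in mondoa-mo and 1026, 1058 and 1037 CPM in mondoa-mis. Ctnna1 was not called either, at 0.12, but its groups did not overlap. CTNND1 was called higher, with 827, 741 and 761 CPM in mondoa-mo and 717, 683 and 685 CPM in mondoa-mis. It rose by 0.16 (adjusted p = 0.032), and this call was lost without any 1 of the mondoa-mis libraries. The call of CTNND1 was also lost without mondoa-mo replicate 1 and with libraries scaled by their size alone. Without mondoa-mis replicate 1 the count of genes called higher was 4, and it was 5 without mondoa-mo replicate 1, mondoa-mis replicate 2 or mondoa-mis replicate 3, with dsc2l, dsg2.1 or both among the calls lost. With libraries scaled by their size alone 5 genes were higher and 1 was lower.

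**Figure D5:**
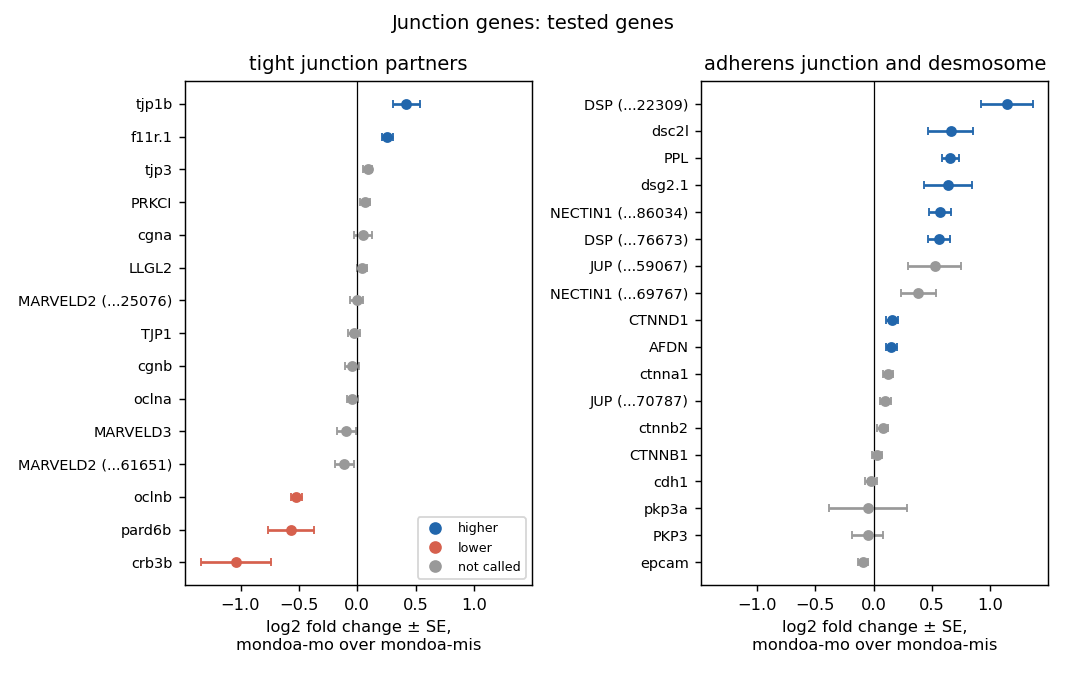
Log2 fold change, mondoa-mo over mondoa-mis, with its standard error (x axes) for tested tight junction partners and adherens junction and desmosome genes (rows; genes that share a symbol carry the end of their identifier); blue points were called higher, red points lower and grey points were not called. The called tight junction partners lie on both sides of 0, with crb3b at −1.04 and tjp1b at 0.42, and the called adherens junction and desmosome genes all lie above 0.

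Further markers of the EVL and of other cells in the embryo were looked up, although whole-embryo RNA cannot assign the 5 genes to a layer. Of 17 other EVL markers, 7 were tested, 1 was higher and 0 were lower by edgeR's quasi-likelihood test. Over all tested genes 16.9% were higher and 15.4% lower. The markers icn, icn2, anxa1c and cyt1l had 0 counts in every library. The summed level of the 17 was 909.8 to 956 CPM in mondoa-mo and 847 to 861 CPM in mondoa-mis. Most of it came from genes for membrane proteases and their inhibitors, such as st14a with 459.7, 457 and 466 CPM in mondoa-mo and 442, 442 and 439 CPM in mondoa-mis. The marker called was spint1b, a protease inhibitor gene, with 207, 214 and 229.6 CPM in mondoa-mo and 185, 192 and 182 CPM in mondoa-mis (log2 fold change 0.22, adjusted p = 0.0086), and this call was lost without mondoa-mis replicate 3. Of 11 tested deep cell markers, 9 were higher and 1 was lower, against 16.9% and 15.4% over all tested genes. Nothing is read from this count, since the list was drawn up with earlier results of these data known. It also did not hold vent, which the paper reports as reduced. Tbx16, called higher, overlapped between the groups, and the call of tbxta was lost without any 1 of the mondoa-mis libraries. The summed level of the 12 listed deep cell markers was 726 to 905 CPM in mondoa-mo and 512 to 514 CPM in mondoa-mis. SOX3, the most abundant of these, had 245, 226 and 275 CPM in mondoa-mo and 109, 109 and 103 CPM in mondoa-mis. The YSL markers were low, with a summed level of 17.1 to 33.0 CPM in mondoa-mo and 14.1 to 15.6 CPM in mondoa-mis, 3 of 9 tested, 1 higher and 1 lower. The part of deep cells and of the YSL in the levels of the 5 EVL genes was not tested.

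Mondoa-mo replicate 3 also stood apart in some transcripts that were nearly absent from the other libraries, and these were picked here after their values were seen. The keratin gene krt92 had 2, 0 and 29 counts in mondoa-mo replicates 1, 2 and 3, against 5, 0 and 3 counts in mondoa-mis replicates 1, 2 and 3. MTTP, for the microsomal triglyceride transfer protein of the YSL, had 1, 4 and 42 counts in mondoa-mo, against 3, 1 and 1 counts in mondoa-mis. SLC26A1, a transporter gene of the YSL list, had 5, 3 and 34 counts in mondoa-mo, against 10, 2 and 3 counts in mondoa-mis. For krt92, MTTP and SLC26A1 the high value was that of mondoa-mo replicate 3 alone, the library in which krt4, krt8, krt18a.1 and cldne were highest. Other YSL list genes with few counts were mixed. HNF4A had 8, 4 and 24 counts in mondoa-mo, against 8, 4 and 1 in mondoa-mis. GATA6 had 5, 2 and 20 counts in mondoa-mo, against 4, 16 and 4 in mondoa-mis. Apobb.1 had 2, 3 and 7, against 6, 6 and 4, and apoa1b 2, 2 and 0, against 1, 0 and 1. A link to the levels of the EVL genes was not tested.

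Some of the 5 genes lie in clusters of related genes, as the RefSeq gene table of assembly GRCz12tu shows. Krt5, krt8, krt18a.1 and krt18a.2 follow each other among the protein-coding genes. Of this run, krt8 and krt18a.1 were well expressed, whereas krt18a.2 averaged 0.0246 CPM in mondoa-mo and 0.0136 CPM in mondoa-mis. Cldne lies between cldnj and cldnf, with cldna beyond cldnf. Its neighbours were low: cldnf averaged 0.652 CPM in mondoa-mo and 0.449 CPM in mondoa-mis, cldna 0.728 CPM in mondoa-mo and 0.456 CPM in mondoa-mis, and cldnj had 0 counts in all libraries. Related genes can share reads, and the counting kept uniquely mapped pairs only.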

How the data were processed

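Messenger RNA libraries of 3 mondoa-mo and 3 mondoa-mis samples were sequenced by the authors with 50 nucleotides from each end, mapped with STAR 2.3.8 to GRCz11 and counted per Ensembl gene. The values deposited by the authors are raw counts of uniquely mapped pairs, with a gene length in bases. Use of strand in counting is not given in the sources used here, so overlapping genes are uncertain. Differences were tested with edgeR 4.0.16 under R 4.3.3 (filterByExpr, TMM, quasi-likelihood test, Benjamini-Hochberg adjustment over all 15511 tested genes, threshold 0.05). CPM and RPKM used TMM-scaled library sizes, and RPKM the deposited lengths. Symbols were found for 28986 of 32054 identifiers.

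The 5 genes and the gene lists were chosen with earlier results of these data known. Named in the text were the 5 genes and, for each list, genes among the 4 most abundant tested and up to 4 called with the largest change, with additions stated or made to show family members and totals. For each of the 5 genes, the 3 tested genes with the highest Pearson r of log2 CPM (prior count 2, mean of at least 500 counts) were taken. Alternatives were library size or relative log expression scaling, 2 other filters, DESeq2 1.42.0, the replicate number as a block and each library left out. Sequences were not used here, and some list genes are counted but not reported singly or plotted.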

Additional observations from a re-analysis of the deposited data

How the results depend on the processing

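The log2 fold changes of all 5 EVL genes kept their sign in every alternative run, and under other scalings, filters, DESeq2 and the block they stayed between −1.92 and −1.87 for grhl3, −0.75 and −0.63 for krt4, −0.53 and −0.46 for krt8, 0.21 and 0.26 for krt18a.1, and 1.12 and 1.17 for cldne. With single libraries left out, krt4 lay between −1.25 and −0.35 and krt8 between −0.90 and −0.23, the lowest without mondoa-mo replicate 3. Counts over all genes were then 1632 to 3039 higher (2621 with all libraries) and 1487 to 2793 lower (2396). Counted with the 5 genes in their lists, those called higher were 0 to 1 for keratins, 3 to 6 for claudins and 4 to 8 for adherens junction and desmosome genes, and those called lower were 4 to 7 for EVL regulators, 0 to 3 for keratins, 0 to 3 for claudins, 2 to 3 for tight junction partners and 0 to 1 for adherens junction and desmosome genes. Claudins called lower were 2 with library size scaling and 2 with relative log expression scaling. Library size scaling gave 5 adherens junction and desmosome genes higher and 1 lower, and DESeq2 gave 2 tight junction partners lower. With all genes with at least 1 count, and without the 5 genes, 1 keratin, krt97, was called lower. The cause was not tested.

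Same-numbered libraries deviated together only weakly (correlations 0.0382, 0.0261 and 0.0473), although each mondoa-mo library correlated best with its own number. The labels do not say whether same-numbered libraries shared a clutch or a day, and this was not tested. With the replicate block and without the 5 genes, 1 keratin, krt97, and 2 claudins were called lower. Of 30 calls among the 47 named list genes, 0 were lost with the block, 3 with DESeq2 and up to 11 without a single library, and 0 reversed. Depth limits the keratins other than the 5 that were tested, which had few counts.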

Other observations

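The germ cell markers include mRNAs of the germ plasm, the maternal material inherited by the primordial germ cells. Of 6 tested, 4 rose, 0 fell and 2 were not called in edgeR's quasi-likelihood test, where 16.9% of all tested genes were higher and 15.4% lower. The call of tdrd7a, 1 of the 4, was lost without mondoa-mo replicate 2 or any 1 of the mondoa-mis libraries. The summed level of the 6 was 777 to 866 CPM in mondoa-mo and 659 to 679.6 CPM in mondoa-mis. DAZL, an RNA-binding protein gene of germ cells, rose by 0.48 on the log2 scale (adjusted p = 7.6e-05), and DND1, needed for primordial germ cell survival, rose by 0.54 (adjusted p = 0.00077). Of the YSL markers, mxtx1, a homeobox gene of this layer, had 10.4, 12.4 and 17.7 CPM in mondoa-mo and 6.75, 6.17 and 5.80 CPM in mondoa-mis (log2 fold change 1.10, adjusted p = 0.0013). GATA5, the other YSL marker called, went the other way, with 2, 3 and 16 counts in mondoa-mo and 33, 21 and 22 counts in mondoa-mis. Its log2 fold change was −1.97 (adjusted p = 0.021). The call of GATA5 was lost without mondoa-mo replicate 2, mondoa-mis replicate 1 or mondoa-mis replicate 3. It was also lost with a filter of at least 10 counts in every library, which GATA5 did not pass. The remaining tested YSL marker, mxtx2, was not called, at 0.17. Among the deep cell markers, the ventral repressor gene vox had 106, 102 and 120.4 CPM in mondoa-mo and 50.4, 49.3 and 51.5 CPM in mondoa-mis (log2 fold change 1.12, adjusted p = 3.1e-06), and tdgf1, the Nodal co-receptor gene, was the 1 that fell, by 0.37 (adjusted p = 0.00044). The list did not hold vent, a further ventral marker gene. The paper reports vent as reduced in its RNA-seq, with RT-qPCR as a check. By in situ hybridization it also found vent reduced in age-matched morphants, at a later time, when controls were at shield stage. For vox that staining showed only a somewhat wider dorsal gap.

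The genes whose log2 CPM was most like that of each EVL gene over the 6 libraries were looked up among 6941 abundant genes. As the libraries fall into 2 groups, these values of Pearson's r are descriptions of pattern only. For grhl3 they were GDI2, TXN and zgc:110339 (r = 0.999 each), whose log2 fold changes were −1.10, −0.93 and −2.13. For krt4 they were foxa (r = 0.996), ttf1.4 (r = 0.989) and RPLP0 (r = 0.988), and for krt8 they were dap1b (r = 0.989), CALR (r = 0.987) and arhgef12b (r = 0.984). These 6 genes had smaller differences than krt4 and krt8, with log2 fold changes of −0.21 to −0.10. For krt18a.1 they were PRPF8 (r = 0.995), DDX5 (r = 0.993) and RPS28 (r = 0.985), with log2 fold changes of 0.03, 0.05 and 0.05. For cldne they were GOLPH3, FLII and baz2a (r = 0.999 each), with log2 fold changes of 0.13, 0.52 and 0.19. These genes, too, had smaller differences than krt18a.1 and cldne.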
